A study of Mus musculus with 8 samples.

Results

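The core replication-dependent histone genes of the mouse were described in ribosome footprints and in RNA-seq of resting B cells and T cells. Members were the Ensembl genes whose mouse symbol names an H2A, H2B, H3 or H4 gene of the Hist1, Hist2, Hist3 or Hist4 cluster. The linker H1 genes and the replacement variants were left out. This rule found 64 genes among the 53801 of each count file, with 20 for H2A, 19 for H2B, 12 for H3 and 13 for H4. Of these, 50 lie in Hist1 on chromosome 13, 10 in Hist2 on chromosome 3, 3 in Hist3 on chromosome 11 and 1, Hist4h4, on chromosome 6. Each of the 4 groups held 2 libraries: B-cell footprints (libraries 1 and 3), T-cell footprints (1 and 2), B-cell RNA-seq (1 and 3) and T-cell RNA-seq (1 and 4). All came from total B or T cells of B6 mouse spleen, isolated with Miltenyi magnetic reagents and kept for 2 h in complete RPMI without a stated stimulus. The labels give cycloheximide, a blocker of translation elongation, at 100 µg/ml for 15 min for all 8 samples. They do not say that libraries of a group came from separate animals, so p-values measure the spread between libraries, which may be technical. No age is given, and the groups are sorted populations that can hold other cells.

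Core histones are the proteins around which DNA is wrapped in the nucleosome, as pairs of H2A with H2B and of H3 with H4. The replication-dependent genes are known for supplying them in S phase, from short mRNAs without introns that end in a conserved stem-loop in place of a poly(A) tail. The stem-loop is bound by Slbp, and the clustered genes are transcribed with the coactivator Npat. Resting lymphocytes lie mostly outside the cell cycle, and replacement variants made from polyadenylated mRNAs are used in such cells. Ribosome profiling sequences the mRNA stretches that ribosomes protect from nuclease. The RNA-seq was made with TruSeq RNA v2, a kit that picks out RNA with a poly(A) tail.

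The deposited values were counts per gene, given below as CPM, the count scaled to library size, with TMM scaling over the 8 libraries. They were not divided by gene length. Library totals ran from 136433 to 627833 counts for footprints and from 8945905 to 10050986 for RNA-seq, so any RNA-seq library held at least 14.2 times the counts of any footprint library. A single count was worth 1.51 to 6.67 CPM in footprints and 0.106 to 0.114 CPM in RNA-seq. The labelled cell types were checked against marker genes. Summed B-cell markers reached 8270 to 13400 CPM in B-cell libraries of both assays and at most 560 CPM in T-cell libraries. Summed T-cell markers reached 3280 to 5630 CPM in T-cell libraries and at most 450 CPM in B-cell libraries, the latter in B-cell RNA-seq library 3.

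In 63 cases the gene matched RefSeq of GRCm38.p6 (the mm10 build) once, and Hist1h2ap matched more than 1 entry and has no position here. There are 3 pseudogenes, Hist1h2aj, Hist1h2al and Hist3h2bb-ps. The gene models of 56 members span 360 to 911 bases, with a median of 479, and the other 7 are longer, among them Hist1h2bc, Hist1h2be and Hist2h2be. Histone genes often lie as divergent pairs, and 13 H2A genes had an H2B gene within 163 to 280 bases (median 191). Exact letters were searched on either strand in the 250 bases before the start of 56 RefSeq promoters of 55 members, beside all 32851 promoters of that table. The CCAAT box, CCAAT, was found in 17 of 17 H2A, 17 of 17 H2B, 8 of 10 H3 and 3 of 12 H4 promoters, and in 33.9% of all promoters. The octamer bound by Oct-1, ATTTGCAT, was found in 7 H2A and 7 H2B promoters, in none of the 10 H3 and 12 H4 promoters, and in 1.6% of all promoters. In divergent pairs the searched windows share bases, so a single site can count for both H2A and H2B. The octamer of Hist1h2ae and Hist1h2bg is such a site, and the H2A and H2B counts are not separate. TATAAA was found in 25 of the 56, against 12.4% of all promoters. The letters GGTCCG were searched after they had been seen in H4 promoters, and were found in 9 of 12 H4, 1 of 10 H3, 1 of 17 H2B and 0 of 17 H2A promoters, and in 6.72% of all promoters. These matches describe letters, not binding.

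The 130 bases before the start are printed for 6 members. They are shown because Hist1h4i and Hist3h2ba did not differ between the assays beyond the test's threshold, Hist1h4f and Hist1h4j had many footprints over few RNA-seq counts, Hist1h2bf passed the test between cell types, and Hist1h2bb holds the octamer. Capitals mark matches to the motifs searched, on either strand. Sequences are 5′ to 3′ on the strand of the gene, from RefSeq GRCm38.p6, at Hist1h4i chr13:22041363-22041492 on the minus strand, Hist1h4f chr13:23551669-23551798 on the minus strand, Hist1h4j chr13:21734904-21735033 on the plus strand, Hist3h2ba chr11:58948781-58948910 on the plus strand, Hist1h2bf chr13:23574208-23574337 on the minus strand and Hist1h2bb chr13:23746604-23746733 on the plus strand.
Hist1h4i: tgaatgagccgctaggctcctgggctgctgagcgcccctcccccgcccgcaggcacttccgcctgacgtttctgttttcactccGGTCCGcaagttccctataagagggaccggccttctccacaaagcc
Hist1h4f: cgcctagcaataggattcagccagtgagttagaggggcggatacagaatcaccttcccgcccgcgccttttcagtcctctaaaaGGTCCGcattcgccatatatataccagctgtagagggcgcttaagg
Hist1h4j: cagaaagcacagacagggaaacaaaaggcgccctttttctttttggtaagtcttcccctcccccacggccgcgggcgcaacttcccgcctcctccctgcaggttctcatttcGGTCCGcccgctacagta
Hist3h2ba: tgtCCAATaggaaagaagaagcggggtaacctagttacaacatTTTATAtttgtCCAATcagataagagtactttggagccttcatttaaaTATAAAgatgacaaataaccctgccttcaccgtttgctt
Hist1h2bf: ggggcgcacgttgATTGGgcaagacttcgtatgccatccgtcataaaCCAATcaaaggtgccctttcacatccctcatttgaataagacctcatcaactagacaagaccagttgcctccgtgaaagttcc
Hist1h2bb: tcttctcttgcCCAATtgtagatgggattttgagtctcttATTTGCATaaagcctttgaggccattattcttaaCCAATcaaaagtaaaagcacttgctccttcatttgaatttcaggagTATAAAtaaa
Hist1h4i and Hist1h4f hold GGTCCG at the same place, with its first letter 46 bases before the start, and no CCAAT box in the searched 250 bases. Hist1h4j holds it 18 bases before the start.

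Core histones took a far larger share of ribosome footprints than of RNA-seq counts in both cell types. Summed over the 64 genes, the footprint counts were 1516 and 2326 for B cells, and 6147 and 882 for T cells. These were 0.64% and 1.0% of the counts of the B-cell libraries and 0.979% and 0.646% of those of the T-cell libraries. RNA-seq counts were 879 and 647 for B cells, and 888 and 507 for T cells, from far deeper libraries. That is 0.00929% and 0.0072% in B cells, against 0.00883% and 0.00567% in T cells. In CPM the sums were 6160 and 10600 against 99.9 and 71.4 in B cells, and 9300 and 5880 against 94.6 and 56.5 in T cells. Every footprint sum lay above every RNA-seq sum, and the ratio of pooled CPM was 96.5 in B cells and 114 in T cells. Here and below, pooling gives the deeper library more weight, in T-cell footprints library 1 (627833 counts) over library 2 (136433 counts). Pooled ratios of B and T cells are therefore not compared. Taken gene by gene, 48 of the 64 had more footprint counts than RNA-seq counts in total, and 11 had fewer. The largest RNA-seq count of any member in any library was 143, for Hist1h4i.

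**Figure D1:**
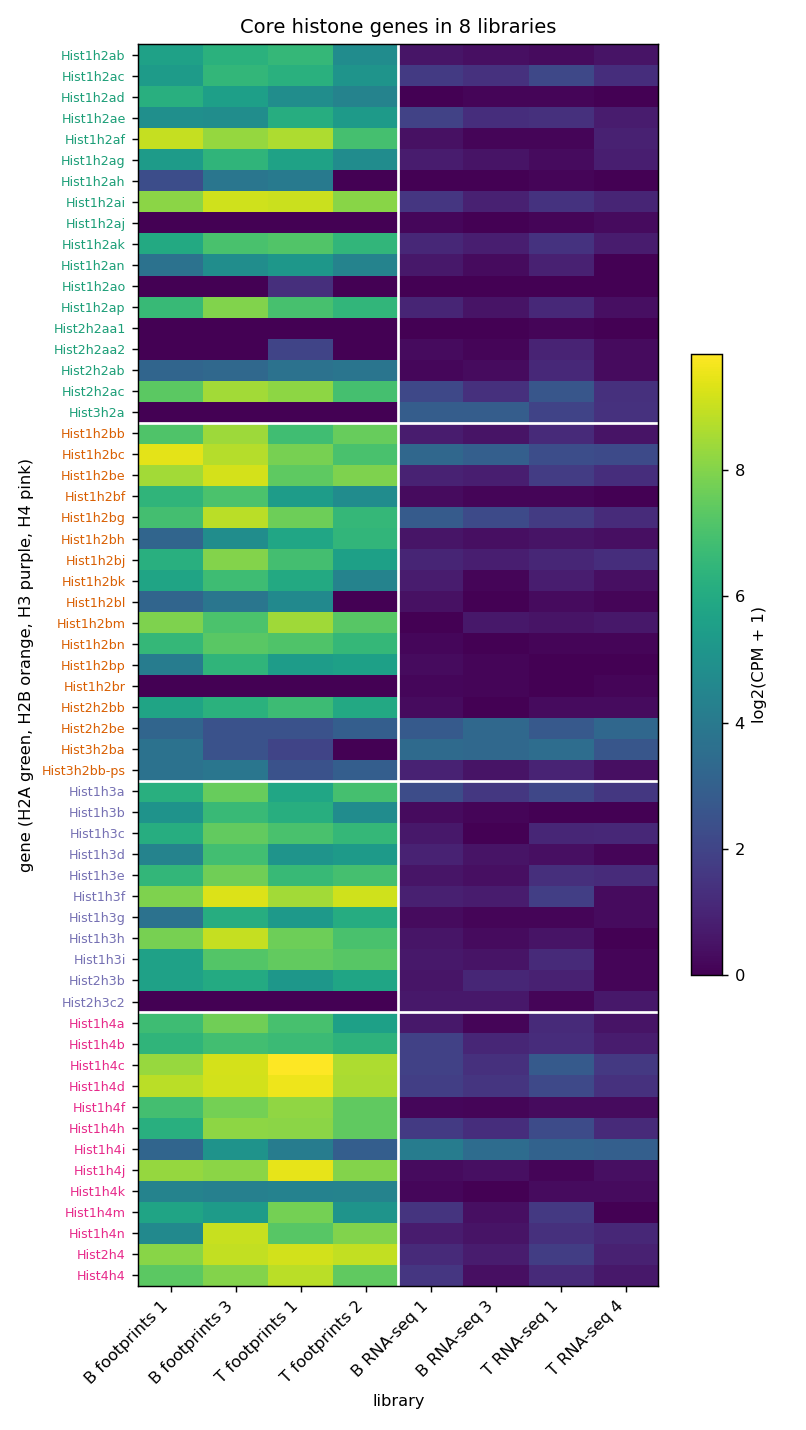
Levels of the 59 core histone genes with at least 1 count, as log2(CPM + 1), in the 8 libraries. Rows are genes by class, columns are libraries, and the footprint columns on the left are brighter in nearly all rows, with Hist3h2a, Hist2h2be, Hist3h2ba and Hist1h4i among the rows that are not.

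In edgeR's quasi-likelihood test over 13227 genes with Benjamini-Hochberg adjustment, 49 of the 53 members tested were higher in footprints than in RNA-seq in B cells, and 0 were lower. Of all genes tested, 6.51% were higher and 12.3% lower. In T cells 48 of 53 were higher and 0 lower, against 8.91% and 18.6% of all genes. DESeq2 also called 0 lower, and at an unadjusted p under 0.05 edgeR had 1 lower in B cells (Hist3h2a) and 0 in T cells. The median difference of the members tested was 7.58 (log2) in B cells and 7.02 in T cells, beside -0.44 and -0.54 over all genes tested. A member could pass the filter on low counts through its footprints, so the counts above are given as a description. Without regard to the filter, the footprint libraries lay entirely above the RNA-seq libraries for 49 of all 64 members in B cells and for 47 in T cells, against 20.7% and 20.8% of the genes tested. They lay entirely below for 4 members in each cell type, against 46.9% and 50.0%. These shares cover only genes that passed the filter, while the 64 members include genes too low to test. Of the 21 members that pass the filter on RNA-seq alone, 17 were higher in footprints in each cell type. Their differences ran from 3.69 to 9.07 in B cells (median 6.67) and from 4.6 to 8.43 in T cells (median 6.55). The other 4 were Hist1h4i, Hist2h2be, Hist3h2a and Hist3h2ba. The assays also differ in library kit, RNA selection and sequencing, which was single-end for footprints and paired-end for RNA-seq. These differences cannot be told apart from a difference in ribosome occupancy.

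The classes shared the pattern. Summed CPM of H2A was 1350 and 1960 in B-cell footprints and 1840 and 867 in T-cell footprints, over 21.5, 14.7, 21.6 and 10.1 in RNA-seq. H2B stood at 1960 and 2800 CPM in B cells, then 1650 and 1190 in T cells, over 36.3, 32.3, 30.1 and 24.2. H3 had 857 and 2200 CPM, then 1190 and 1350, over 9.1, 5.96, 11.5 and 5.79. Of the classes, H3 had the lowest RNA-seq sum in each library. H4 had 1990 and 3610 CPM in B cells, then 4610 and 2470 in T cells, over 33.1, 18.4, 31.3 and 16.4. Pooled CPM ratios of footprints to mRNA in B and T cells were 90.9 and 104 for H2A, 68.8 and 57.5 for H2B, 199 and 140 for H3, and 108 and 176 for H4. No class sum of footprints overlapped a class sum of RNA-seq. By cluster the ratios were 131 and 147 for Hist1, 60.5 and 66.2 for Hist2 and 186 and 432 for the single gene Hist4h4. Hist3 stood apart with 1.3 and 0.683. Its 3 genes held 12.6% to 22.3% of the core histone counts in RNA-seq libraries and 0.0813% to 0.396% in footprint libraries.

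**Figure D2:**
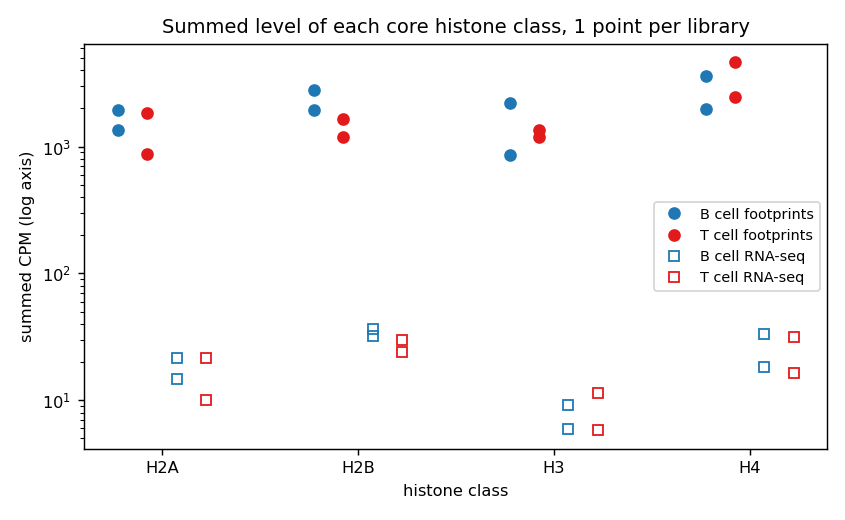
Summed CPM of each core histone class in each library, on a log axis, with filled circles for footprints, open squares for RNA-seq, blue for B cells and red for T cells. All footprint sums lie at 857 CPM or above, and all RNA-seq sums at 36.3 CPM or below.

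Values of single members follow, with footprint levels in the order B-cell libraries 1 and 3 then T-cell libraries 1 and 2, and RNA-seq counts in the order B-cell libraries 1 and 3 then T-cell libraries 1 and 4. H2A proteins pair with H2B and carry the acidic patch on the nucleosome surface. Of the 20 H2A members, 12 are given in full. Hist1h2ai had footprint levels of 280 and 550 CPM in B cells and 522 and 273 CPM in T cells, over 17 and 8 RNA-seq counts for B cells, then 16 and 9 for T cells. For Hist1h2af, footprints stood at 496 and 305 CPM in B cells and 395 and 120 CPM in T cells, with 3, 1, 1 and 8 RNA-seq counts. Footprints of Hist2h2ac were 163, 350, 283 and 120 CPM, and its RNA-seq counts were 30, 14, 48 and 14. These 3 led the class, with 64.9% of H2A footprint counts in B cells and 64.5% in T cells. Their footprint libraries overlapped between the cell types and lay far above RNA-seq. For Hist1h2af, which passed the filter on low counts through its footprints, the pooled ratio of footprint to RNA-seq CPM was 1810 in B cells, over 4 RNA-seq counts, with a counting interval of 696 to 6720 (95%, exact). In T cells it was 702, with an interval of 364 to 1550. For such members the ratio is given with no test. Hist1h2ap had footprint levels of 97.5 and 250 CPM in B cells and 124 and 86.7 CPM in T cells, over 9 and 4 RNA-seq counts for B cells, then 11 and 3 for T cells. For Hist1h2ak, footprints stood at 61 and 127 CPM in B cells and 141 and 86.7 CPM in T cells, with 10, 7, 16 and 6 RNA-seq counts. Footprints of Hist1h2ab were 48.8, 77.3, 92.3 and 26.7 CPM, and its RNA-seq counts were 4, 3, 2 and 4. Hist1h2ap shares near-identical copies with its neighbours, and other members also have such copies, among them Hist2h3c1 and Hist2h3c2. The sources used here do not say how reads fitting several copies were counted. Levels, ratios and ranks of single members may depend on this in all classes, which was not tested. For Hist1h2ac, footprints stood at 40.6 and 90.9 CPM in B cells and 74.1 and 33.3 CPM in T cells, with 19, 15, 32 and 13 RNA-seq counts. Footprints of Hist1h2ag were 40.6, 86.4, 49.9 and 26.7 CPM, and its RNA-seq counts were 6, 4, 2 and 7. Hist1h2ad had footprint levels of 73.1 and 45.5 CPM in B cells and 27.2 and 20 CPM in T cells, over 0 and 1 RNA-seq counts for B cells, then 1 and 0 for T cells. Hist1h2ad was counted only once in each cell type by RNA-seq. Its pooled ratio of footprint to RNA-seq CPM was 1070 in B cells, with a counting interval of 177 to 43900 (95%, exact). For Hist1h2ae, footprints stood at 28.4 and 27.3 CPM in B cells and 68.1 and 40 CPM in T cells, with 25, 13, 15 and 6 RNA-seq counts. Footprints of Hist1h2an were 12.2, 27.3, 36.3 and 20 CPM, and its RNA-seq counts were 5, 2, 8 and 0. Hist1h2ae had the lowest difference among the H2A genes that passed in B cells, 3.69 ± 0.65 (adjusted p = 0.0069).

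The remaining H2A gene, Hist3h2a, had no footprint count. Its RNA-seq counts were 57 and 58 in B cells, then 28 and 15 in T cells, the most of any H2A gene in B cells, and no footprint was counted in any of the 4 libraries. A count of 0 over a cell type allows up to 6.44 CPM in B cells and 3.7 CPM in T cells (3 counts), and the RNA-seq levels were 6.44 and 2.34 CPM. At this depth a shortfall of footprints was therefore not detectable (adjusted p = 0.106 in B cells and 0.147 in T cells). The gene lies on chromosome 11 from 58954685 to 58955192, where RefSeq also places Trim17, and without knowledge of strand use its reads cannot be told apart from those of that gene. The other 8 H2A genes had at most 11 counts in any library of RNA-seq and 10 in footprints. Among them Hist1h2ah had 4 footprint and 0 RNA-seq counts in B cells, at least 51.1-fold more in footprints against a floor of 3 counts over the group. Hist1h2aa and Hist1h2al were at 0 in all 8 libraries.

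H2B is the partner of H2A, and its C-terminal tail is ubiquitinated in transcribed chromatin. Of the 19 H2B members, 14 are given in full. Hist1h2bc had footprint levels of 691 and 423 CPM in B cells and 225 and 127 CPM in T cells, over 77 and 63 RNA-seq counts for B cells, then 37 and 32 for T cells. For Hist1h2be, footprints stood at 349 and 582 CPM in B cells and 169 and 240 CPM in T cells, with 8, 7, 22 and 13 RNA-seq counts. Footprints of Hist1h2bg were 118, 450, 203 and 93.3 CPM, and its RNA-seq counts were 54, 33, 21 and 12. In B cells these 3 held 55.1% of H2B footprint counts. Hist1h2bc, on chromosome 13 from 23684199 to 23692480, had the highest mean footprint level of all members in B cells, 557 ± 190 CPM (SD, n = 2), and also ranked high in RNA-seq. Its footprints exceeded mRNA by 6.14 ± 0.41 in B cells (adjusted p = 0.000144) and 5.6 ± 0.42 in T cells (adjusted p = 0.000195). Hist1h2bm had footprint levels of 240 and 132 CPM in B cells and 339 and 153 CPM in T cells, over 0 and 5 RNA-seq counts for B cells, then 4 and 5 for T cells. For Hist1h2bb, footprints stood at 138 and 336 CPM in B cells and 112 and 187 CPM in T cells, with 6, 4, 12 and 4 RNA-seq counts. Footprints of Hist1h2bj were 73.1, 255, 118 and 46.7 CPM, and its RNA-seq counts were 9, 7, 10 and 13. Hist1h2bm led the class in T cells with 19.5% of its footprint counts, and its levels in the 2 cell types overlapped. For Hist1h2bn, footprints stood at 93.5 and 159 CPM in B cells and 138 and 93.3 CPM in T cells, with 1, 0, 1 and 1 RNA-seq counts. Footprints of Hist1h2bk were 52.8, 109, 62 and 20 CPM, and its RNA-seq counts were 6, 1, 7 and 3. Hist1h2bf had footprint levels of 85.3 and 132 CPM in B cells and 42.3 and 26.7 CPM in T cells, over 2 and 1 RNA-seq counts for B cells, then 1 and 0 for T cells. Hist1h2bn was among the most lopsided members, with 58 footprint counts over 1 RNA-seq count in B cells, a pooled CPM ratio of 2220 with a counting interval of 384 to 89300. In T cells 105 counts stood over 2, a ratio of 1190 with an interval of 321 to 9940. For Hist2h2bb, footprints stood at 52.8 and 77.3 CPM in B cells and 106 and 60 CPM in T cells, with 2, 0, 2 and 2 RNA-seq counts. Footprints of Hist1h2bh were 8.13, 27.3, 56 and 86.7 CPM, and its RNA-seq counts were 4, 3, 4 and 3. Hist1h2bp had footprint levels of 16.3 and 86.4 CPM in B cells and 42.3 and 46.7 CPM in T cells, over 2 and 1 RNA-seq counts for B cells, then 0 and 0 for T cells. Hist1h2bp had no RNA-seq count in T cells, where footprints were at least 264-fold higher than the floor of 3 counts over the group.

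The other 2 fully described H2B genes did not pass the test between the assays. Hist2h2be, the H2B gene beside Hist2h2ac on chromosome 3 (96221072 to 96223738), had 2 and 1 footprint counts for B cells, then 3 and 1 for T cells. Its RNA-seq counts were 51 and 81, then 53 and 78. The log2 difference was -0.2 ± 0.74 in B cells (adjusted p = 0.879) and -0.51 ± 0.68 in T cells (adjusted p = 0.603). Its pair partner Hist2h2ac, 191 bases away, had 117 footprint counts in B cells and 205 in T cells, and exceeded mRNA by 6.67 ± 0.74 and 5.98 ± 0.71. Hist3h2ba, on chromosome 11 from 58948911 to 58949372, had 3, 1, 2 and 0 footprint counts over 85, 82, 98 and 46 RNA-seq counts, the largest pooled RNA-seq count of any H2B gene in each cell type. The difference was -0.13 ± 0.77 in B cells (adjusted p = 0.917) and -1.68 ± 0.91 in T cells (adjusted p = 0.195). From pooled counts the T-cell ratio was 0.314 with a counting interval of 0.0377 to 1.16. Without B-cell footprint library 3 the B-cell differences of Hist2h2be and Hist3h2ba were 0.11 and 0.35. The lncRNA gene Gm51864 overlaps Hist3h2ba. The other 5 H2B genes had at most 16 counts in a footprint library and 9 in an RNA-seq library. The pseudogene Hist3h2bb-ps had 3, 3, 3 and 1 footprint counts over 8, 4, 9 and 3 by RNA-seq, a pooled CPM ratio of 19.2 in B cells (counting interval 5.9 to 55.2) and 7.55 in T cells (1.77 to 24.9).

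**Figure D3:**
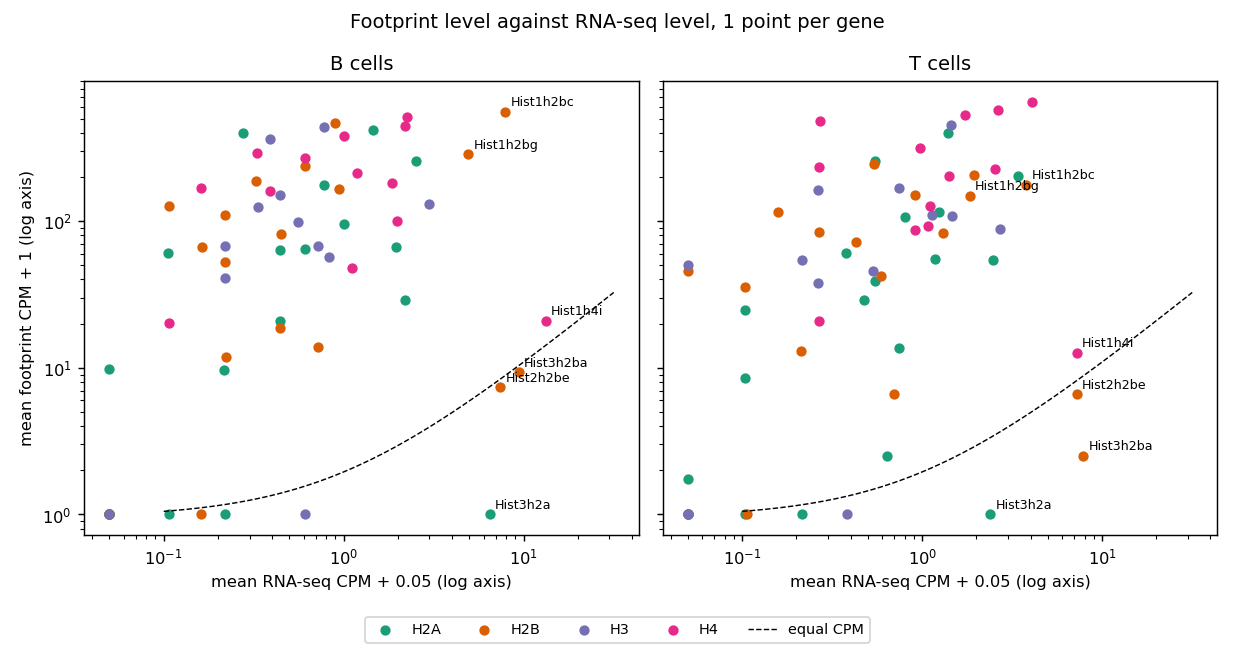
Mean footprint CPM + 1 against mean RNA-seq CPM + 0.05 of each of the 64 genes, on log axes, in B cells (left) and T cells (right), coloured by class; the dashed line marks equal CPM. Most genes lie far above the line, and Hist1h4i, Hist2h2be and Hist3h2ba lie near or below it, with Hist3h2a at 0 footprints.

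H3 forms the tetramer with H4 and carries many of the best known tail modifications. Of the 12 H3 members, 10 are given in full, and all 10 were higher in footprints in both cell types. Beside them, 6.51% of all genes were higher in B cells and 8.91% in T cells. Only Hist1h3a and Hist1h3e pass the filter on RNA-seq alone, so the count of 10 is given as a description. Hist1h3f had footprint levels of 240 and 632 CPM in B cells and 355 and 553 CPM in T cells, over 7 and 6 RNA-seq counts for B cells, then 24 and 2 for T cells. For Hist1h3h, footprints stood at 224 and 500 CPM in B cells and 200 and 127 CPM in T cells, with 4, 2, 4 and 0 RNA-seq counts. Footprints of Hist1h3e were 89.4, 209, 96.8 and 120 CPM, and its RNA-seq counts were 4, 3, 14 and 12. Hist1h3f led the class, with 28.5% of H3 footprint counts in B cells and 32.1% in T cells, and its libraries overlapped between the cell types. It passed the filter through its footprints, and its pooled CPM ratio was 584 in B cells (counting interval 334 to 1120) and 277 in T cells (185 to 431). Hist1h3i had footprint levels of 48.8 and 145 CPM in B cells and 178 and 153 CPM in T cells, over 5 and 4 RNA-seq counts for B cells, then 12 and 1 for T cells. For Hist1h3a, footprints stood at 73.1 and 186 CPM in B cells and 56 and 120 CPM in T cells, with 34, 18, 31 and 18 RNA-seq counts. Footprints of Hist1h3c were 69.1, 177, 126 and 93.3 CPM, and its RNA-seq counts were 5, 0, 10 and 10. Hist1h3a led H3 in RNA-seq, with 38.8% of the counts in B cells and 30.6% in T cells, and had the smallest difference of the class, 5.45 ± 0.61 and 4.88 ± 0.62. Hist1h3d had footprint levels of 20.3 and 114 CPM in B cells and 33.3 and 40 CPM in T cells, over 8 and 4 RNA-seq counts for B cells, then 3 and 1 for T cells. For Hist1h3b, footprints stood at 32.5 and 100 CPM in B cells and 71.1 and 26.7 CPM in T cells, with 2, 1, 0 and 0 RNA-seq counts. Footprints of Hist1h3g were 12.2, 68.2, 39.3 and 66.7 CPM, and its RNA-seq counts were 2, 1, 1 and 2. In T cells Hist1h3b was not counted by RNA-seq, and its 51 footprint counts put it at least 385-fold higher against the floor of 3 counts. Hist2h3b had footprint levels of 48.8 and 63.6 CPM in B cells and 36.3 and 53.3 CPM in T cells, over 4 and 10 RNA-seq counts for B cells, then 8 and 1 for T cells. The other 2, Hist2h3c1 and Hist2h3c2, are near-identical copies without a footprint count. Hist2h3c2 had 5, 5, 1 and 5 RNA-seq counts.

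H4 is the least varied core histone, and its genes encode the same protein. Of the 13 H4 members, 12 are given in full. In each cell type 12 of the 13 were higher in footprints, beside 6.51% of all genes in B cells and 8.91% in T cells. Only 9 of the 13 pass the filter on RNA-seq alone, so the count of 12 is given as a description. Hist1h4c had footprint levels of 313 and 582 CPM in B cells and 909 and 393 CPM in T cells, over 24 and 14 RNA-seq counts for B cells, then 56 and 19 for T cells. For Hist1h4d, footprints stood at 447 and 573 CPM in B cells and 761 and 387 CPM in T cells, with 22, 17, 33 and 15 RNA-seq counts. Footprints of Hist2h4 were 272, 491, 575 and 480 CPM, and its RNA-seq counts were 11, 6, 23 and 8. The first of these, on chromosome 13 from 23698084 to 23698458, had the highest mean of all members in T-cell footprints, 651 ± 365 CPM (SD, n = 2). Hist1h4j had footprint levels of 305 and 277 CPM in B cells and 705 and 253 CPM in T cells, over 2 and 3 RNA-seq counts for B cells, then 1 and 3 for T cells. For Hist1h4f, footprints stood at 118 and 218 CPM in B cells and 293 and 173 CPM in T cells, with 1, 1, 2 and 2 RNA-seq counts. Footprints of Hist4h4 were 163, 259, 451 and 173 CPM, and its RNA-seq counts were 17, 3, 12 and 5. Both Hist1h4j and Hist1h4f passed the filter through their footprints. The pooled CPM ratio of Hist1h4j was 1040 in B cells (counting interval 436 to 3260) and 2850 in T cells (1110 to 10500). For Hist1h4f it was 1480 (395 to 12400) and 1250 (480 to 4610). Hist1h4n had footprint levels of 24.4 and 514 CPM in B cells and 156 and 247 CPM in T cells, over 6 and 4 RNA-seq counts for B cells, then 15 and 10 for T cells. For Hist1h4h, footprints stood at 73.1 and 286 CPM in B cells and 281 and 173 CPM in T cells, with 19, 13, 35 and 11 RNA-seq counts. Footprints of Hist1h4a were 110, 209, 124 and 46.7 CPM, and its RNA-seq counts were 5, 1, 12 and 4. Hist1h4n varied widely between libraries of a group, 24.4 and 514 CPM in B-cell footprints. Hist1h4b had footprint levels of 85.3 and 114 CPM in B cells and 103 and 80 CPM in T cells, over 24 and 10 RNA-seq counts for B cells, then 13 and 6 for T cells. For Hist1h4m, footprints stood at 52.8 and 40.9 CPM in B cells and 219 and 33.3 CPM in T cells, with 16, 3, 20 and 0 RNA-seq counts. T-cell library 1 was the high one for Hist1h4m. The gene outside the full description, Hist1h4k, had 5, 4, 13 and 3 footprint counts over 1, 0, 2 and 2 by RNA-seq.

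Hist1h4i was the exception in this class. It had 143 and 92 RNA-seq counts for B cells, then 70 and 62 for T cells, 51.3% and 29.9% of the H4 counts of those groups. Footprint counts were 2 and 7 in B cells, then 11 and 1 in T cells. Its footprint levels (8.13, 31.8, 16.6 and 6.67 CPM) overlapped its RNA-seq levels (16.3, 10.1, 7.45 and 6.91 CPM). The log2 difference was 0.56 ± 0.63 in B cells (adjusted p = 0.554) and 0.96 ± 0.61 in T cells (adjusted p = 0.264). Without B-cell footprint library 3 the B-cell difference was -0.73, and without T-cell footprint library 1 the T-cell difference was -0.04. The gene lies on chromosome 13 from 22040960 to 22041362. Together Hist1h4i, Hist2h2be, Hist3h2a and Hist3h2ba, named after their values were seen, made up 38.2%, 48.4%, 28.0% and 39.6% of the core histone counts of the 4 RNA-seq libraries. They made up 0.462%, 0.387%, 0.26% and 0.227% in the 4 footprint libraries, a description, since few footprints over many RNA-seq counts is what singled them out. Across the 59 members with a count, mean levels ranked alike in B and T cells (Spearman rho 0.93 in footprints and 0.88 in RNA-seq), and less alike between assays (0.34 in B cells and 0.39 in T cells). These are descriptions over genes that share libraries.

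Between B and T cells few core histone footprints passed the test, while the estimates ran from -1.88 to 1.67 (log2, B over T). In edgeR's test of the 4 footprint libraries, 2 of the 43 members tested were higher in B cells and 0 lower, beside 8.38% and 4.80% of 4771 genes. Both were H2B genes. Hist1h2bc stood at 691 and 423 CPM in B cells and 225 and 127 CPM in T cells, without overlap, a difference of 1.67 ± 0.44 (adjusted p = 0.0252). Hist1h2bf stood at 85.3 and 132 CPM against 42.3 and 26.7 CPM, also without overlap, a difference of 1.59 ± 0.48 (adjusted p = 0.0495). Both of its B-cell libraries met the filter on low counts, but not both T-cell libraries (28 and 4 counts). Its call is therefore given as a description. With DESeq2 the adjusted p was 0.0284 for Hist1h2bc and 0.213 for Hist1h2bf. Without T-cell footprint library 1 neither passed (0.0596 and 0.185), and likewise without T-cell footprint library 2 (0.215 and 0.174). The count rested on single libraries: 11 members were higher without B-cell library 1, and 1 was higher and 4 lower without B-cell library 3. At an unadjusted p under 0.05 were 7 of the 43 members, no larger a share than the 1132 of all 4771 genes tested. The other 5 had adjusted p of 0.0971 to 0.188. They were Hist1h2be (1.24 ± 0.44), Hist1h3h (1.16 ± 0.46) and Hist1h2ad (1.31 ± 0.54). In the other direction were Hist1h2bh (-1.88 ± 0.67) and Hist1h4m (-1.5 ± 0.65, and 0.4 without T-cell library 1). Of these, Hist1h2ad and Hist1h2bh passed the filter on low counts only through the cell type where they were high.

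By class the median difference, B over T, was 0.27 for H2A, 0.79 for H2B, 0.39 for H3 and -0.43 for H4, with 0.02 over all genes tested. H2B held 31.8% and 26.5% of the core histone footprint counts in B cells, against 17.7% and 20.3% in T cells. H4 held 32.3% and 34.2% in B cells, against 49.6% and 42.0% in T cells. Neither share overlapped between the cell types, but 2 libraries against 2 cannot go below p = 0.333 in an exact permutation test. By RNA-seq the H2B share was 36.3% and 45.3% in B cells, against 31.9% and 42.8% in T cells, and the H4 share 33.1% and 25.8% against 33.1% and 29.0%, both overlapping. Over all 64 members, footprint libraries did not overlap for 7 with B cells higher and 4 with T cells higher, against 24.5% and 27.7% of the genes tested. The 64 include genes too low to test, so these are not like for like. In these bulk samples, fewer cells with histone mRNA and less of it per cell cannot be told apart.

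In RNA-seq 0 of the 21 members tested differed between the cell types with edgeR, beside 9.40% of 13929 genes higher and 9.06% lower. DESeq2 and limma voom also called 0. With edgeR 5 of the 21 had an unadjusted p under 0.05, no larger a share than the 4522 of all 13929 genes tested. On simulated data edgeR recovered 7.46% of 2-fold and 53.7% of 4-fold changes in this comparison, so differences of such size could be missed. Hist3h2a came nearest, at 6.48 and 6.4 CPM in B cells and 2.98 and 1.67 CPM in T cells (1.52 ± 0.41, adjusted p = 0.0691). Hist1h2bc stood at 8.75 and 6.95 CPM against 3.94 and 3.57 CPM (1.12 ± 0.3, adjusted p = 0.07). Both genes had B-cell libraries above T-cell libraries. The others were Hist1h3e (-1.76 ± 0.51), Hist1h2bg (1.5 ± 0.48) and Hist1h4i (0.93 ± 0.32), with adjusted p of 0.083 to 0.118. Over all 64 members, RNA-seq libraries did not overlap for 8 with B cells higher and 8 with T cells higher, against 27.0% and 34.5% of the genes tested. The 64 include genes too low to test, so the count and the shares are not like for like.

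**Figure D4:**
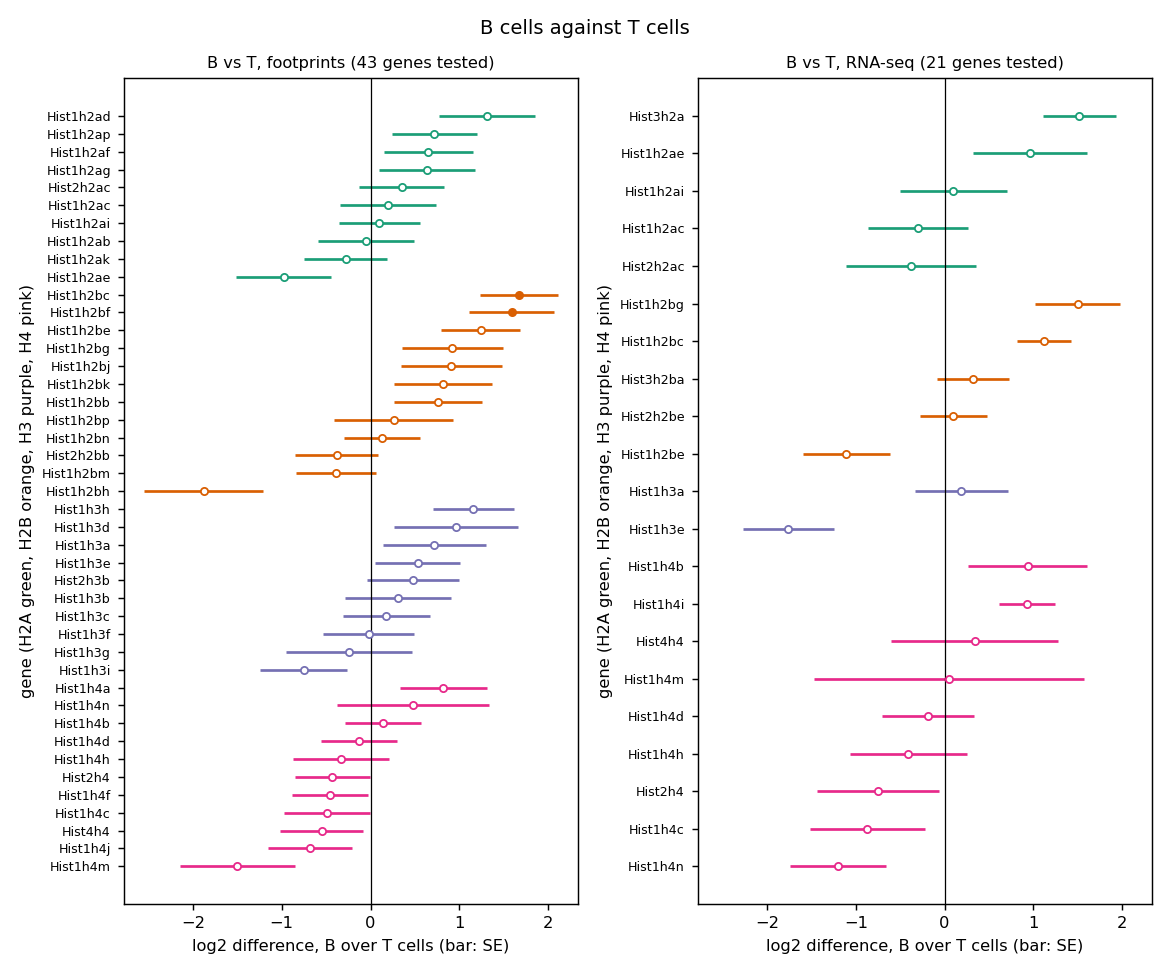
Log2 difference of B over T cells for each core histone gene tested, with its SE as a bar, in footprints (left, 43 genes) and RNA-seq (right, 21 genes); filled points have an adjusted p under 0.05. Only Hist1h2bc and Hist1h2bf in footprints are filled.

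Whether the gap between footprints and mRNA differed between cell types was tested as an interaction over all 8 libraries. None of the 53 members passed with edgeR (0% of 13227 genes), and DESeq2 called 0 members. With edgeR 3 of the 53 had an unadjusted p under 0.05, beside 748 of all 13227 genes tested. On simulated data the edgeR interaction test recovered 0% of 2-fold and 4-fold changes and 24.2% of 8-fold changes. Differences of such size could therefore be missed. Hist1h2be had 349 and 582 CPM in B-cell and 169 and 240 CPM in T-cell footprints, against 0.91 and 0.772, then 2.34 and 1.45 CPM by RNA-seq. Its interaction was 2.37 ± 0.58 (adjusted p = 0.875), with B cells above T cells in footprints and below them in RNA-seq. Hist1h3e gave 2.27 ± 0.71 and Hist1h2ae -1.94 ± 0.8, with the same adjusted p.

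The linker H1 genes, which share the cluster on chromosome 13 and the replication-dependent mRNA form except for H1f0 and H1fx, were tested in the same way. Of the 7, 5 were higher in footprints in each cell type and 0 lower (median 7.88 in B cells and 6.39 in T cells). Of all genes tested, 6.51% were higher and 12.3% lower for B cells. The T-cell shares of all genes were 8.91% higher and 18.6% lower. Hist1h1d stood at 630 and 696 CPM in B-cell and 281 and 280 CPM in T-cell footprints, over 3.18 and 1.43, then 2.13 and 1.56 CPM in RNA-seq. The difference was 8.15 ± 0.44 in B cells (adjusted p = 8.08e-05) and 7.23 ± 0.44 in T cells (adjusted p = 0.00014). Hist1h1b stood at 276, 441, 358 and 240 CPM in footprints over 1.36, 0.331, 0.639 and 0.223 CPM, and passed the filter through its footprints, as did Hist1h1a. The count of 5 includes these 2 genes and is therefore given as a description. The 2 linker genes that did not pass the test between the assays were H1f0 and H1fx. Between cell types, footprints of Hist1h1e were higher in B cells (1.48 ± 0.44, adjusted p = 0.0467), and RNA-seq of H1f0 was lower in B cells (-1.58 ± 0.28, adjusted p = 0.0258).

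Replacement variants, which are made outside S phase from polyadenylated mRNAs, summed to more CPM in RNA-seq than in footprints. Of 8 tested, 1 was higher and 1 lower in B cells, and 2 were higher and 2 lower in T cells (medians -0.51 and 0.25), beside 18.8% and 27.5% of all genes called in either direction. Summed over the list the pooled CPM ratio was 0.512 in B cells and 0.828 in T cells. H3f3b stood at 463 and 600 CPM in B-cell footprints over 2760 and 1690 CPM in RNA-seq, and was lower in footprints (-2.07 ± 0.38 on the log2 scale, adjusted p = 0.00855). In T cells the difference was -1.59 ± 0.38 (adjusted p = 0.0174). H2afx, whose mRNA exists in a stem-loop and a polyadenylated form, was higher by 1.49 ± 0.4 in B cells (adjusted p = 0.0336) and 2.09 ± 0.39 in T cells (adjusted p = 0.00662). Between cell types RNA-seq of H3f3a (1.38 ± 0.16) and Cenpa (0.63 ± 0.11) was higher in B cells and that of H2afz (-1.02 ± 0.13) lower, with adjusted p of 0.0104 to 0.0257. In footprints 0 of 8 were called by edgeR, beside 8.38% of all genes higher and 4.80% lower. An unadjusted p under 0.05 was found for 1 of 8, beside 1132 of all 4771 genes tested.

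**Figure D5:**
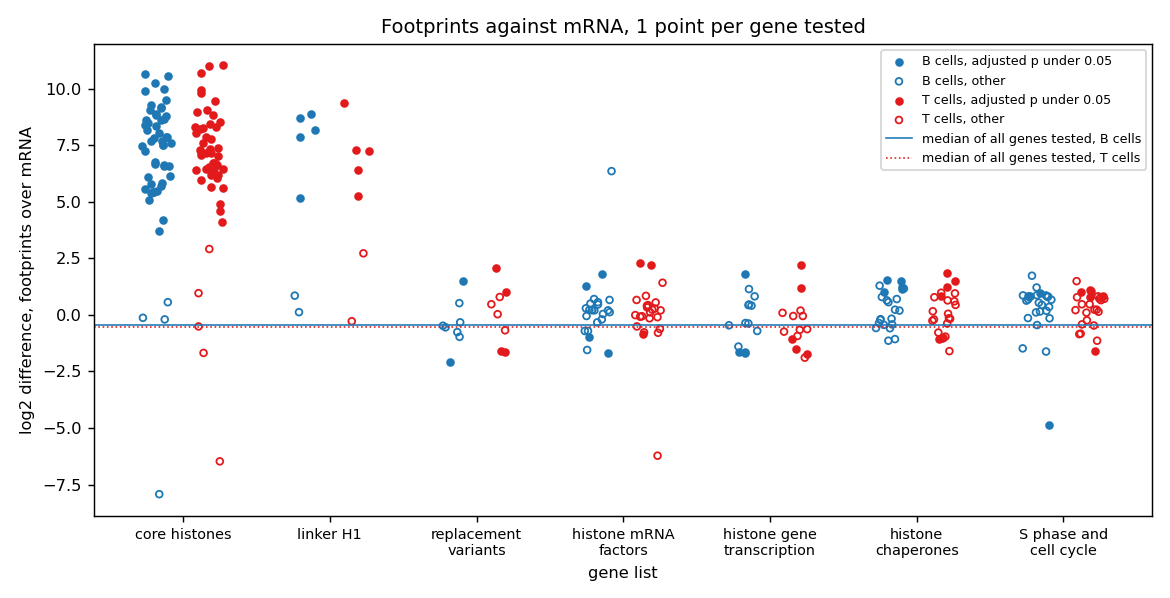
Log2 difference of footprints over mRNA for each gene tested, by list, in B cells (blue) and T cells (red), with filled points at an adjusted p under 0.05 and lines at the median of all genes tested (-0.44 and -0.54). Core histones and linker H1 lie mostly above 3.69, and the other lists lie mostly around 0. Histone mRNA factors reach 6.35 in B cells (Ctif, without RNA-seq counts there) and -6.22 in T cells (Zfp473, without footprint counts there), both fitted values. Gins2 stands at -4.86 in B cells, over a single footprint count. The low core histone points are Hist3h2a, a fitted value for a gene without footprint counts.

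Among 24 tested factors that make and bind histone mRNA, 2 were higher and 2 lower in footprints in B cells, beside 6.51% and 12.3% of all genes. In T cells 2 were higher and 1 lower, beside 8.91% and 18.6%. Slbp, the stem-loop binding protein, stood at 69.1 and 81.8 CPM in B-cell footprints and 135 and 86.7 CPM in T-cell footprints, over 82.9, 63, 82.3 and 64.8 CPM in RNA-seq. Its difference was 0.04 ± 0.32 in B cells (adjusted p = 0.932) and 0.66 ± 0.29 in T cells (adjusted p = 0.119). Npat stood at 65 and 45.5 CPM and 93.8 and 66.7 CPM in footprints, over 18, 14.1, 18.7 and 17.6 CPM. It was higher in footprints by 1.79 ± 0.34 in B cells (adjusted p = 0.0094) and 2.2 ± 0.3 in T cells (adjusted p = 0.0019). Tut4, a uridylyltransferase for histone mRNA, was also higher (1.28 ± 0.32 and 2.28 ± 0.33), and the cap-complex gene Srrt lower (-0.98 ± 0.25 and -0.86 ± 0.25). Mif4gd, which binds Slbp, was lower in B cells (-1.7 ± 0.34). Between cell types 3 of 24 were higher and 2 lower by RNA-seq, beside 9.40% and 9.06% of all genes. They were led by Mif4gd (2.11 ± 0.21, adjusted p = 0.00782) and by Ctif. Ctif stood at 0 in both B-cell libraries against 1.7 and 2.67 CPM in T cells (adjusted p = 0.0256). It passed the filter on low counts through its T-cell libraries alone, so its call is given as a description. By footprints edgeR called 0 of 16, beside 8.38% of all genes higher and 4.80% lower. An unadjusted p under 0.05 was found for 2 of 16, beside 1132 of all 4771 genes tested. U7 snRNA (Rnu7), which guides cleavage of histone pre-mRNA, was at 0 in all libraries.

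Among genes for histone transcription, 1 was higher and 3 lower of 14 in B cells (6.51% and 12.3% of all genes), and 2 higher and 3 lower in T cells (8.91% and 18.6% of all genes). Npat was higher in each, and Gapdh, part of the Oct-1 coactivator, E2f2 and Nfyc were lower in each. Histone chaperones had 5 of 23 higher and 0 lower in B cells, and 4 higher and 2 lower in T cells, against the same shares of all genes. Hat1, which acetylates new H4, was higher by 1.55 ± 0.24 in B cells (adjusted p = 0.00392) and 1.49 ± 0.22 in T cells (adjusted p = 0.00268). Asf1a, which carries H3 with H4, was higher by 1.5 ± 0.27 and 1.21 ± 0.26. The chaperone Nap1l1 was the 1 gene of this list that differed between cell types, higher in B cells by RNA-seq (1.05 ± 0.18, adjusted p = 0.0234) and by footprints (1.55 ± 0.41, adjusted p = 0.0247). Of all genes, 9.40% were higher in B cells by RNA-seq and 8.38% by footprints.

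S phase and cell cycle genes had 2 of 26 higher and 1 lower in B cells, and 5 higher and 1 lower in T cells (medians 0.65 and 0.47). Of all genes 18.8% were called in either direction in B cells and 27.5% in T cells. Mki67, a proliferation marker, stood at 93.5 and 59.1 CPM in B-cell and 59 and 26.7 CPM in T-cell footprints, over 49.5, 34.5, 44.4 and 38.8 CPM in RNA-seq. Pcna, the replication clamp, stood at 56.9 and 90.9 CPM and 150 and 93.3 CPM, over 271, 139, 282 and 176 CPM. Transcripts of the cell cycle were counted in all 8 libraries. The difference was 0.87 ± 0.38 for Mki67 in B cells (adjusted p = 0.139) and -1.48 ± 0.47 for Pcna (adjusted p = 0.0586). Top2a, a mitotic topoisomerase, was higher in footprints in B cells (0.98 ± 0.29) and T cells (1.06 ± 0.27). Gins2, a helicase subunit, was lower (-4.86 ± 0.63 and -1.59 ± 0.36). Its B-cell footprints stood at 0 and 4.55 CPM, the latter a single count, over 61.8 and 64.6 CPM in RNA-seq. The size of its B-cell difference is therefore uncertain. Between cell types 1 of 26 was higher and 1 lower by RNA-seq, Tk1 (0.97 ± 0.16) and Mcm6 (-0.57 ± 0.11), beside 9.40% and 9.06% of all genes. By footprints edgeR called 0 of 13, beside 8.38% of all genes higher and 4.80% lower. An unadjusted p under 0.05 was found for 0 of 13, beside 1132 of all 4771 genes tested.

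Libraries of a group differed by more than sampling noise, with chi-square over its degrees of freedom of 5.14 to 7.74 over the members in footprints and 1.88 to 3.09 in RNA-seq. Over all genes it was 4.43 to 6.07 in footprints and 20.9 to 29.4 in the deeper RNA-seq. Of the 48 genes given in full, 38 were higher in B-cell footprint library 3 than 1, 35 in T-cell footprint library 1 than 2, 43 in B-cell RNA-seq library 1 than 3, and 34 in T-cell RNA-seq library 1 than 4. Markers of other cells also differed between them. Summed over 5 neutrophil markers, RNA-seq gave 96.1 and 11.2 CPM in B cells and 124 and 5.79 CPM in T cells, and footprints gave 8.13, 459, 36.3 and 180 CPM. The primary granule gene Mpo stood at 70.6, 0, 95.8 and 0.891 CPM in RNA-seq and at 0 in all footprint libraries. In B-cell RNA-seq the neutrophil genes S100a8 (0.91 and 4.08 CPM) and S100a9 (1.02 and 6.95 CPM) were higher in the other library. Summed over 5 plasma cell markers, RNA-seq gave 1540, 376, 1170 and 125 CPM, and footprints 1180, 2750, 330 and 493 CPM. Other sets ran the other way in RNA-seq. Summed over 6 macrophage and dendritic cell markers they gave 34.2 and 157 CPM in B cells, then 45.7 and 420 CPM in T cells, and over 4 natural killer cell markers 12.7 and 43 CPM, then 101 and 150 CPM. The part of these cells in the levels of histone genes was not tested.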

How the data were processed

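RNA-seq and ribosome footprints were measured in 8 libraries, 2 per cell type and assay. The authors deposited counts per gene, raw whole numbers per the labels and the values. Per the submitters' processing notes FastQC, Bowtie2, TopHat, HTSeq and mm10 were used, while versions, settings, strand use and annotation are not stated there (not given in the sources used here). From these counts edgeR 4.0.16 (R 4.3.3) with TMM scaling, filterByExpr (minimum count 10, total 15) and quasi-likelihood tests was run on all genes, adjusted over all genes tested by Benjamini-Hochberg, with a threshold of 0.05. Cell types were compared within each assay (2 residual degrees of freedom), and assays and the interaction in all 8 libraries (4 residual). The test was checked on simulated data with known changes. Of 4-fold changes it recovered 53.7% between cell types in RNA-seq and 64.2% in footprints. Between assays it recovered 29.9% in B cells and 32.8% in T cells, and for the interaction 0%. DESeq2 1.42.0, limma 3.58.1 (voom), RLE scaling, no filter, 219 small RNA and mitochondrial genes left out, scaling within assays, single cell types and leaving out each library were alternatives. Members with a mean of at least 20 CPM in footprints or 5 CPM in RNA-seq were given in full, and of other lists up to 3 genes with the smallest p in each direction, with Slbp, Npat, Mki67 and Pcna. Members and lists were chosen with earlier results of these data known. Intervals are 95% exact intervals and cover counting error only. Of the count columns 0 were left unused. Proteins and stem-loops were not analysed here.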

Additional observations from a re-analysis of the deposited data

How the results depend on the processing

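The excess of footprints over mRNA kept its direction under all alternatives run, with 42 to 49 core histone genes in B cells and 41 to 48 in T cells when 1 library was left out. All 49 and 48 calls were kept under DESeq2, RLE scaling, no filter, TMM within each assay and leaving out small RNA and mitochondrial genes, and DESeq2 added Hist3h2bb-ps in T cells. With T-cell libraries alone 47 passed. In B cells the library numbers 1 and 3 occur in both assays, but deviations of same-numbered libraries correlated at -0.016, so the numbers are not taken as pairs. With the replicate block, in B-cell libraries alone, 44 genes were higher, against 45 without it. The other groups compared share fewer than 2 numbers, so no block could be fitted for them.

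Values that fell on the other side of 0 came from genes that did not pass. Leaving out 1 library gave, for footprints over mRNA in B cells, -1.07 to 0.35 for Hist3h2ba, -0.73 to 1.24 for Hist1h4i and -0.73 to 0.11 for Hist2h2be, with the extremes reached without library 1 or library 3 of the B-cell footprints. For Hist1h4i in T cells it gave -0.04 to 1.3, and for Hist1h4m, B over T in footprints, -2.14 (without T-cell library 2) to 0.4 (without T-cell library 1).

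The comparison of B and T cells in footprints depended on choices. Instead of 2 core histone genes, 1 was higher under DESeq2, RLE scaling, no filter and limma voom, where Hist1h2bf lost its call and Hist1h2bc kept it. Leaving out 1 library gave 0 to 11 higher and 0 to 4 lower. Over all genes in footprints, 370 were lower without the filter, and leaving out 1 library gave 254 to 479 higher and 161 to 419 lower. In RNA-seq over all genes, leaving out 1 library gave 737 to 1090 higher and 698 to 954 lower. For footprints over mRNA over all genes, DESeq2 called 1428 higher in B cells, and leaving out 1 library gave 430 to 935 higher and 851 to 1763 lower in B cells, and 428 to 1526 and 519 to 2786 in T cells. DESeq2 called 2 genes higher and 8 lower for the interaction over all genes, none a core histone. Causes were not tested. The median of all genes for footprints over mRNA moved from -0.44 to -0.24 (DESeq2) and -1.31 (no filter) in B cells, and from -0.54 to -0.35 and -1.3 in T cells. Depth limits both assays: 3 footprint counts over a group stand for 6.44 CPM in B cells and 3.7 CPM in T cells, and 3 RNA-seq counts for 0.168 and 0.163 CPM, while 48 of the 64 members had fewer RNA-seq than footprint counts.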
